A study of Homo sapiens with 4 samples.

Results

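The miR-29 family was measured through its guide strands hsa-miR-29a-3p, hsa-miR-29b-3p and hsa-miR-29c-3p, called miR-29a, miR-29b and miR-29c here. These 3 miRNAs were taken by name from the 851 human miRNAs on the array. The rule uses names alone, although it was drawn up with earlier results of these data known. MG cells and non-MG cells are subpopulations of HCT116, a human colon cancer line, selected over repeated rounds in a transwell, a chamber with a porous membrane. MG cells, labelled high migratory cells, had crossed to the lower side of the membrane, and non-MG cells, labelled low migratory cells and used as the control, had stayed on the upper side. Both were then grown in DMEM with fetal bovine serum, and the labels name no introduced allele and no drug for either. Each group had 2 samples, numbered 1 and 2, and total RNA of each was hybridised to an Agilent one-colour human miRNA array. The labelling kit that the labels name amplifies complementary RNA for gene expression arrays, so how the miRNAs were labelled is unclear and its effect on the signals was not tested. Both groups derive from 1 cell line, and nothing in the sources says whether the samples of a group came from separate cultures. The spread between these samples, on which the p-values rest, may therefore be technical.

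miRNAs guide the silencing complex to messenger RNAs that pair with the seed, the bases near the 5′ end. The miR-29 family is known for repressing genes of the extracellular matrix, among them fibrillar collagens, elastin and fibrillin, and also the DNA methyltransferases DNMT3A and DNMT3B and the survival factor MCL1. Its level is known to fall in fibrosis of several organs and in a number of cancers. The family comes from 4 hairpins in 2 clusters, of which 1 gives miR-29a and miR-29b and the other gives miR-29b and miR-29c.

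The mature sequences are shown because they carry what the members share and where they differ. They are from RefSeq (GRCh38.p14), 5′ to 3′, with the seed, bases 2 to 8, in capitals.
hsa-miR-29a-3p: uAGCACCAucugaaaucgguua
hsa-miR-29b-3p: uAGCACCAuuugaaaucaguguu
hsa-miR-29c-3p: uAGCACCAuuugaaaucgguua
All 3 carry the seed AGCACCA. Of 2370 mature human miRNAs in the RefSeq table, 3 had this seed, and they were the members themselves. Counted from 1 at the 5′ end, miR-29a and miR-29c differed by the single substitution C10U. Over their 22 shared positions miR-29a and miR-29b differed by C10U, G18A, U21G and A22U, and miR-29b and miR-29c by A18G, G21U and U22A. miR-29b is 23 bases long against 22 for the others and ends in AGUGUU, a motif known to direct it to the nucleus. How far the probes of one member also capture another was not tested.

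In GRCh38.p14 all 4 hairpins lie on the minus strand. MIR29A, 64 bp long, and MIR29B1, 81 bp long, lie on chromosome 7 with 648 bases between them and overlap no other gene in the RefSeq table. MIR29C, 88 bp long, and MIR29B2, 81 bp long, lie on chromosome 1 with 503 bases between them, both inside the long non-coding RNA gene MIR29B2CHG. The guide strand of miR-29a is at chr7:130876748-130876769 and that of miR-29c at chr1:207801865-207801886. The identical guide strand of miR-29b is encoded at chr7:130877467-130877489 and at chr1:207802450-207802472, so its signal cannot be assigned to a locus.

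On each array 15024 spots measured 939 miRNAs. Between 8.71% and 11.1% of these spots were well above background, between 118 and 135 miRNAs were detected, and no spot was saturated. The signal of a miRNA is the sum of the background-subtracted intensity of its probes, in arbitrary units, scaled between arrays to a common 75th percentile, taken over 116 miRNAs with a detection call on each array. Of the human miRNAs, 57 reached an unscaled signal of 50 on at least 1 array and were tested with limma. That fit gave all 57 the same SE, 0.151 on the log2 scale, from a spread pooled over them. Its intervals and p-values therefore do not reflect the spread of a single miRNA between its own arrays. All arrays shared 1 slide, on which row 1 held the non-MG samples and row 2 the MG samples. An effect of the row and one of the group therefore cannot be told apart. The 5 epithelial marker miRNAs of the miR-200 family were detected on every array, with summed unscaled signals of 619 to 661 in MG and 634 to 770 in non-MG samples. The intestinal epithelial markers miR-192, miR-194 and miR-215 were detected on no array (0 of 3), although the line is from the colon. No blood (0 of 4), muscle (0 of 4) or liver (0 of 1) marker was detected. Of the 5 fibroblast and smooth muscle markers, 4 were detected on no array. Their sums, from miR-145-5p alone, were 0 to 4.42 in MG and 6.48 to 8.76 in non-MG samples, and this list's part in the results was not tested. The endothelial marker miR-126-3p gave 6.27 to 10.4, and of the 2 neural markers 1 was detected on no array and the sum was 0 to 6.60.

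All 3 members were detected on all 4 arrays, and their mean signals were lower in MG than in non-MG cells. miR-29a was 0.801 times its non-MG level, miR-29b 0.897 times and miR-29c 0.701 times. miR-29a and miR-29b reached the signal of 50 and were tested with limma, and 0 of these 2 were called at an adjusted p under 0.05. At an unadjusted p under 0.05, 1 of 2 passed in limma and 0 of 2 by the unpaired test of the figure legends. At an unadjusted p under 0.05 lay 33.3% of all tested miRNAs in the limma fit (19 of 57) and 12.3% in the unpaired test (7 of 57). miR-29c, with a highest unscaled signal of 47.2, lay just below the minimum and was not tested at it. Across all 57 tested miRNAs 24.6% were called in either direction, and 14% were called lower in MG cells. Past a change of 1.5-fold lay 7.02% of the tested miRNAs and no tested member. The median of all 57 was itself 0.945 times the non-MG level, with 40 of 57 below 1, while the median of the 2 tested members was 0.847 times. In RNA from whole samples, fewer cells expressing a miRNA and less of it per cell cannot be told apart.

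miR-29a gave scaled signals of 778 and 876 in the non-MG samples and of 668 and 654 in the MG samples. Both MG arrays lay below both non-MG arrays, and after scaling the MG pair was the tighter one. The means were 827 ± 69.2 (SD, n = 2) in non-MG and 661 ± 9.76 (SD, n = 2) in MG cells. This gap was also present before scaling, with 820 and 830 against 678 and 642. On that scale the non-MG pair was the tighter one, with an SD of 6.76 against 25.5 in MG cells (n = 2). Both MG arrays lay below both non-MG arrays for 40.4% of all tested miRNAs. The limma fit gave a log2 change of -0.32 ± 0.15 (SE), a 95% interval of 0.651 to 0.985 for the fold and an adjusted p of 0.119 (unadjusted 0.0354). The interval does not adjust for the number of miRNAs tested, and it rests on the spread pooled over all 57. These miRNAs share the same arrays and are not independent, so the interval and the p-value can overstate the precision. The unpaired test of the figure legends, which uses the spread of miR-29a alone, gave an unadjusted p of 0.0661. miR-29a had the 10th lowest change of 57 on the log2 scale. The limma fits with normexp background correction, quantile normalization and a spread that follows the mean signal called 13, 11 and 15 of the 57 miRNAs. Of these calls 7, 5 and 9 were lower in MG cells. miR-29a was among them, with folds of 0.829 (limma adjusted p = 0.0312), 0.864 (limma adjusted p = 0.00277) and 0.801 (limma adjusted p = 0.00329) in that order. Over all 18 alternatives its adjusted p ranged from 0.00277 to 1.0.

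miR-29b gave scaled signals of 147 and 128 in the non-MG samples and of 150 and 102 in the MG samples. The groups overlapped: MG replicate 1 was the highest of the 4 arrays and MG replicate 2 the lowest. The means were 138 ± 13.5 (SD, n = 2) in non-MG and 126 ± 34.1 (SD, n = 2) in MG cells. The limma fit gave a log2 change of -0.16 ± 0.15 (SE), with a 95% interval of 0.729 to 1.103 for the fold and an adjusted p of 0.501. The interval holds no change and also a fall as large as the one measured for miR-29a. Without MG replicate 2 the fold turned to 1.09 (limma adjusted p = 0.835), and without MG replicate 1 it was 0.738 (limma adjusted p = 0.0560), so the direction of miR-29b depended on 1 array.

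miR-29c gave the dimmest signals, 44.8 and 38.8 in the non-MG samples and 36.2 and 23.6 in the MG samples after scaling. Both MG arrays lay below both non-MG arrays after scaling. Before scaling, with 47.2 and 36.8 against 36.8 and 23.1, non-MG replicate 2 and MG replicate 1 were equal to this precision and the groups overlapped. The means were 41.8 ± 4.21 (SD, n = 2) in non-MG and 29.9 ± 8.95 (SD, n = 2) in MG cells. With the signal minimum lowered to 20, 91 miRNAs were tested, of which 11% were called lower in MG cells and 40.7% had both MG arrays below both non-MG arrays. In that fit miR-29c was called, with a 95% interval of 0.555 to 0.886 for the fold and a limma adjusted p of 0.0272. It had the 7th lowest change of 91, against a median fold of 0.936. That interval and p also lean on a spread shared across the 91 miRNAs, so they can overstate the precision. Leaving out non-MG replicate 1 ended the call (fold 0.753, limma adjusted p = 0.521), as did leaving out non-MG replicate 2 (fold 0.653, limma adjusted p = 0.439) or MG replicate 2 (fold 0.869, limma adjusted p = 0.814), while leaving out MG replicate 1 did not (fold 0.566, limma adjusted p = 0.00197). The limma fits without non-MG replicate 1 and without non-MG replicate 2 called 0 of the 91 miRNAs (20 and 13 at an unadjusted p under 0.05), so there the loss was not particular to miR-29c. Those without MG replicate 2 and without MG replicate 1 called 7 and 10 of the 91. It was also lost with a spread that follows the mean signal (limma adjusted p = 0.0668) and with every human miRNA detected on all arrays in the fit (limma adjusted p = 0.142).

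**Figure D1:**
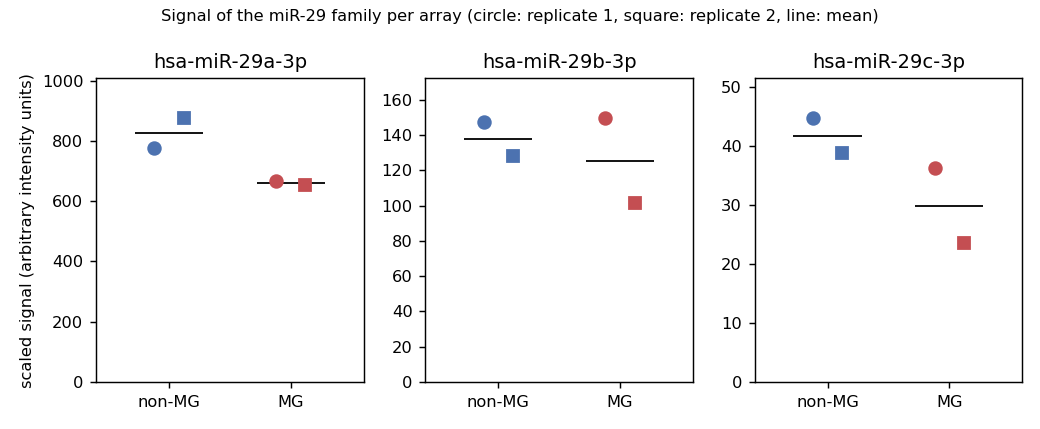
Scaled signal (arbitrary intensity units, linear axis from 0) of miR-29a, miR-29b and miR-29c on each array, with non-MG arrays in blue, MG arrays in red and a line at each group's mean. The MG points lie below the non-MG points for miR-29a (668 and 654 against 778 and 876) and miR-29c, and on either side of them for miR-29b.

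**Figure D2:**
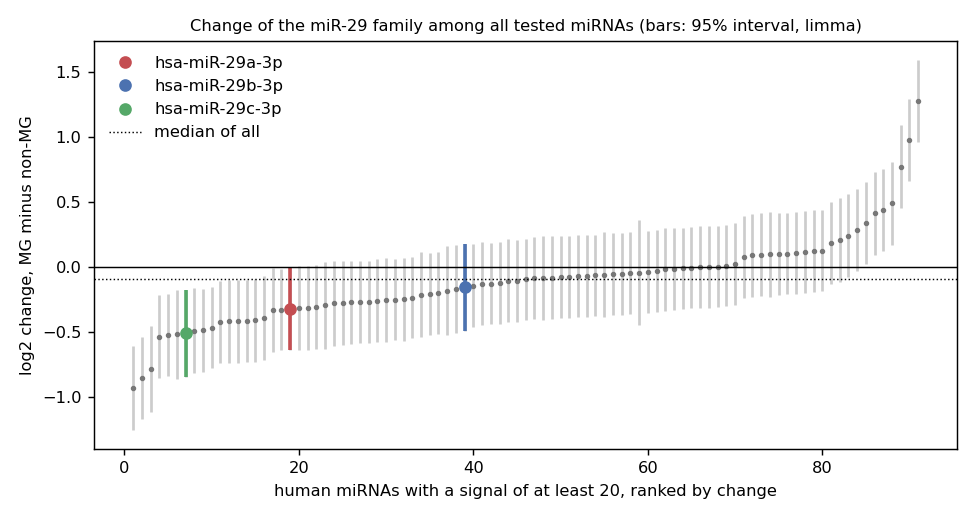
Log2 change, MG minus non-MG, of the 91 human miRNAs with a signal of at least 20, ordered by change, each with its unadjusted 95% interval from limma, and a dotted line at the median of all. miR-29c is the 7th, miR-29a the 19th and miR-29b the 39th from the left, all below 0 and below the median.

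Each member is read by 2 probes, each printed as 8 spots per array, and the probes did not all move alike. For miR-29a all 16 spots were well above background on every array, and both probes were lower in MG cells. Probe A_25_P00012012 gave 258 and 291 in non-MG and 196 and 207 in MG samples, a fold of 0.736. Probe A_25_P00012013 gave 520 and 584 in non-MG and 471 and 446 in MG samples, a fold of 0.833. These probe signals were 9.76 to 9.99 times the error that the scanner software gives for them. Within an array the spots of A_25_P00012012 varied by 3.21% to 38.9% (coefficient of variation) and those of A_25_P00012013 by 8.69% to 21.4%.

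For miR-29b the 2 probes disagreed. The brighter one, A_25_P00010053, gave 133 and 109 in non-MG and 141 and 94.1 in MG samples, a fold of 0.955 with overlapping groups. The dimmer one, A_25_P00010054, gave 14.0 and 19.3 in non-MG and 8.78 and 7.41 in MG samples, a fold of 0.491 with both MG arrays below. The brighter probe made up 85.0% to 94.1% of the summed signal, so it set the value of the miRNA. The signal of the dimmer probe was 3.68 to 7.88 times its error. Of the 16 spots of miR-29b, those well above background numbered 15 and 14 in non-MG samples against 16 and 11 in MG samples.

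For miR-29c both probes had a lower mean in MG cells, and 1 of them separated the groups. Probe A_25_P00012275 gave, before scaling, 29.3 and 24.0 in non-MG and 20.3 and 14.8 in MG samples, and after scaling a fold of 0.654, with both MG arrays below on either scale. Probe A_25_P00012274 gave, after scaling, 17.0 and 13.5 in non-MG and 16.2 and 8.52 in MG samples, a fold of 0.778 with overlapping groups. Of the 16 spots of miR-29c, those well above background numbered 16 and 10 in non-MG samples against 16 and 11 in MG samples, with the lower number on replicate 2 in both groups. The replicate 2 arrays also had the lower share of spots well above background over the whole array in both groups, 9.62% and 8.71% against 11.1% and 10.5%, and the part of this in the values of miR-29b and miR-29c was not tested. The spots of A_25_P00012274 varied by up to 92.2% (coefficient of variation) within an array, on non-MG replicate 2.

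**Figure D3:**
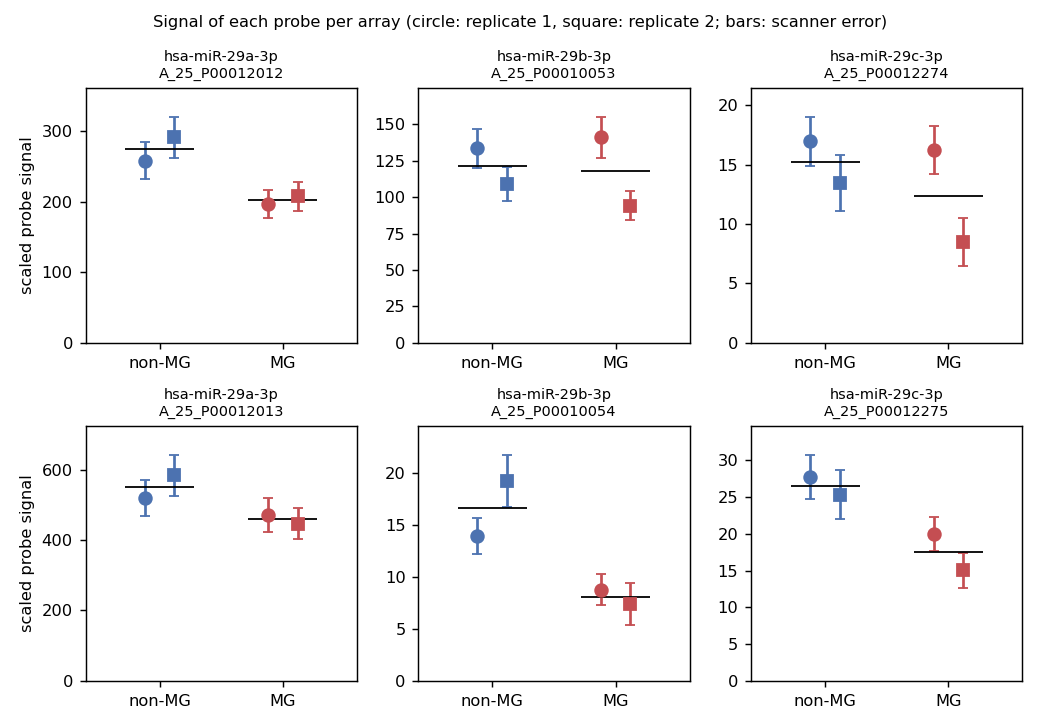
Scaled signal of each of the 6 probes on each array (arbitrary intensity units, linear axes from 0), with bars for the scanner's error of the probe signal and a line at each group's mean. Both miR-29a probes, A_25_P00010054 of miR-29b and A_25_P00012275 of miR-29c have both MG points below both non-MG points, while A_25_P00010053 and A_25_P00012274 overlap.

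The next question was whether the members changed by different amounts. Different probes capture different RNAs with different strength, so signals of members were not compared as amounts, and the log2 ratio of each pair within an array was compared between groups. All 3 pairs were compared by an exact two-sided permutation test, in which 2 against 2 arrays cannot give a p below 0.333. The log2 ratio of miR-29a over miR-29b was 2.40 and 2.77 in non-MG and 2.16 and 2.69 in MG samples, a difference of -0.16 (exact p = 0.667). The log2 ratio of miR-29a over miR-29c was 4.12 and 4.50 in non-MG and 4.20 and 4.79 in MG samples, a difference of 0.19 (exact p = 0.667). In both pairs the groups overlapped. The log2 ratio of miR-29b over miR-29c was 1.72 and 1.73 in non-MG and 2.05 and 2.11 in MG samples, a difference of 0.35 (exact p = 0.333, the smallest this design can give). This ratio was higher on both MG arrays than on both non-MG arrays, and the arrays of a group lay closer to each other than in the other pairs. Adjusted over the 3 pairs by Benjamini-Hochberg, each p was 0.667. No pair therefore differed between groups by this test, and with 2 arrays a group it could not have done so. The difference for miR-29a over miR-29b turned to 0.02 without non-MG replicate 2 and to 0.10 without MG replicate 1, and that for miR-29a over miR-29c to -0.10 without MG replicate 2 and to -0.11 with normexp. That of miR-29b over miR-29c stayed at 0.32 to 0.38 without any 1 array and was 0.07 with normexp.

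**Figure D4:**
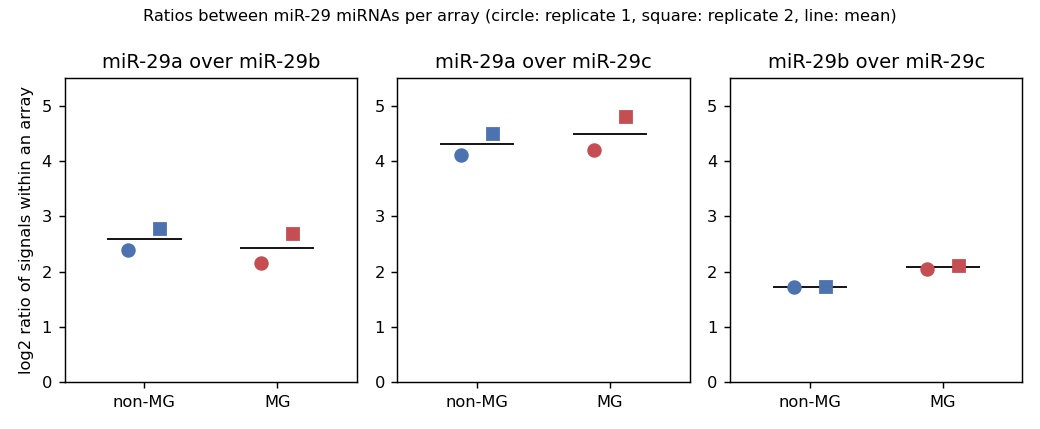
Log2 ratio of the signals of each pair of members within an array (axis from 0), per array and group, with a line at each mean. The ratio of miR-29b over miR-29c lies at 1.72 and 1.73 for non-MG samples and at 2.05 and 2.11 for MG samples, and the groups overlap in the other pairs.

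The passenger strands, the opposite arms of the hairpins that are mostly degraded, differ between the 2 copies of the miR-29b hairpin and so name their locus. miR-29b-1-5p, from MIR29B1 on chromosome 7, was detected on all 4 arrays, with unscaled signals of 13.5 and 11.9 in non-MG and 13.0 and 11.2 in MG samples. It is shown beside its counterpart from chromosome 1, again with bases 2 to 8 in capitals.
hsa-miR-29b-1-5p: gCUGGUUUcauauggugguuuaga
hsa-miR-29b-2-5p: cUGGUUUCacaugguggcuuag
The scaled means of miR-29b-1-5p were 12.7 ± 0.176 (SD, n = 2) in non-MG and 12.1 ± 0.979 (SD, n = 2) in MG cells, a fold of 0.956 with overlapping groups. These sums hold 3 of its 4 probes on replicate 1 of each group and 2 of 4 on replicate 2. The other probes did not exceed 3 times their error there, so the sums are of unlike sets of probes. miR-29b-1-5p lay below the signal minimum and was not tested. miR-29b-2-5p, from MIR29B2, was detected on no array, as were miR-29a-5p and miR-29c-5p. Detection depends on each probe, so this gives no order of the 2 loci.

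The miRNAs whose pattern was most like each member were found by the distance between log2 signals over the 4 arrays, each miRNA centred on its own mean, which is a description of 4 points. Nearest to miR-29a were miR-20a-5p at 0.0534, miR-1308_v15.0 at 0.0636 and miR-25-3p at 0.104 log2 units, against a median of 0.342 over 56 others. Nearest to miR-29b were miR-1260a at 0.0900, miR-19b-3p at 0.145 and miR-31-3p at 0.186. Nearest to miR-29c were miR-106b-5p at 0.253, miR-141-3p at 0.262 and miR-31-3p at 0.299. The members were not among each other's 3 nearest. From miR-29a, miR-29b was the 44th of 56 at 0.486. From miR-29b, miR-29a was the 28th of 56 at that same distance, against a median of 0.489. From miR-29c, miR-29b was the 8th of 57 at 0.357 and miR-29a the 16th at 0.531, both below its median of 0.644. miR-20a-5p itself had a fold of 0.797 (limma adjusted p = 0.112). That this is close to the fold of miR-29a follows from the small distance, since both come from the same 4 signals.

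The family is one of several groups of miRNAs linked to fibrosis, and the other listed miRNAs were measured in the same fit. Of 8 miRNAs described as higher in fibrosis, 7 were detected on no array. The remaining one, miR-21-5p, known as an oncogenic miRNA in colon cancer, was not called, with a fold of 0.987 (limma adjusted p = 0.993). Of 12 miRNAs described as lower in fibrosis like the miR-29 family, 4 were detected on no array and 4 reached the signal minimum. Of these 4, 1 was called lower and 0 higher, beside 14% of all tested miRNAs called lower, with a median fold of 0.893 against 0.945 over all tested miRNAs. The called one was miR-141-3p, a miR-200 family member known to repress the transcription factors ZEB1 and ZEB2, with a fold of 0.761 (limma adjusted p = 0.0411). Its call was lost under most alternatives, among them a minimum of 20 (limma adjusted p = 0.0752), the replicate block (0.115) and the fits without non-MG replicate 1 (0.225), non-MG replicate 2 (0.373) or MG replicate 2 (0.746). At a minimum of 20, 7 of the 12 were tested and 1 was called lower, miR-200a-3p, with a fold of 0.711 (limma adjusted p = 0.0272). In that fit 11% of all 91 tested miRNAs were called lower. The median fold of the 7 was 0.830, against 0.936 over all 91. The others of the 4 were miR-26b-5p at 0.830, miR-200c-3p at 0.962 and miR-200b-3p at 0.979, none of them called.

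**Figure D5:**
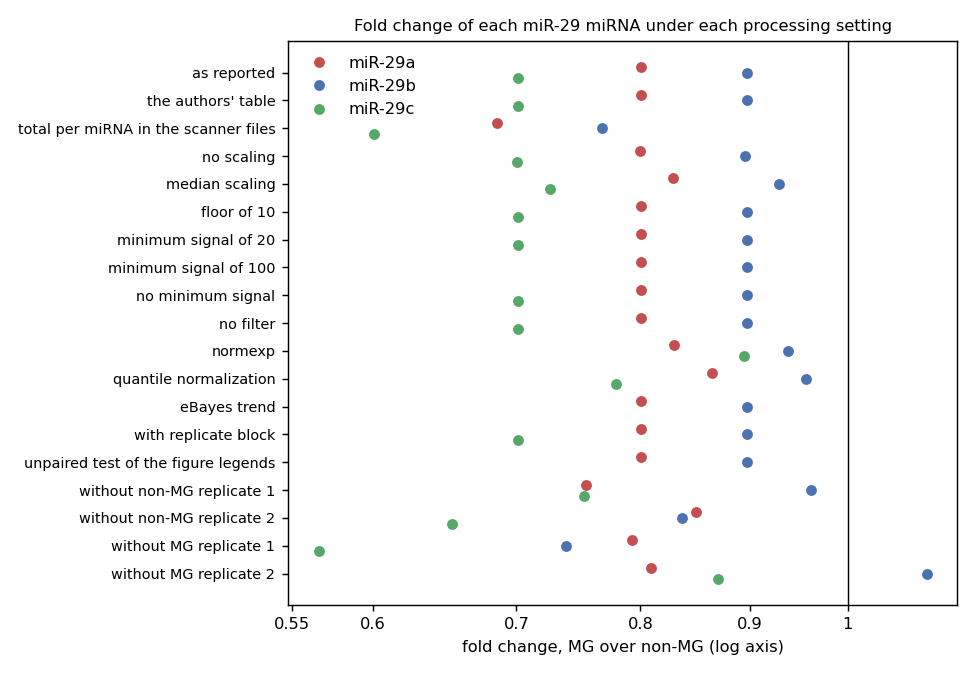
Fold change, MG over non-MG (log axis), of the 3 members as reported and under each other way of processing the arrays that gave a value, with small vertical offsets between members. All points lie below 1 except miR-29b without MG replicate 2, at 1.09.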

How the data were processed

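Expression of miRNAs was measured in 2 MG and 2 non-MG samples on one-colour Agilent arrays, grouped by the labels. The authors deposited scanner output from Feature Extraction 10.7.1.1, with a background-subtracted intensity per spot, probe and miRNA, and a table of intensity per miRNA, neither normalized between arrays. GeneSpring is named in the methods, but no normalization or test for the arrays.

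Probe signals above 3 times their error were summed per miRNA. These sums match the authors' table for all 142 detected miRNAs within 0.05%. Arrays were brought to a common 75th percentile, computed over 116 miRNAs with a detection call on every array, and log2 was taken after a floor of 1. The 57 human miRNAs whose signal before scaling reached 50 on any array were compared with limma 3.58.1 (lmFit, eBayes, two-sided, Benjamini-Hochberg, adjusted p under 0.05) in R 4.3.3. Folds are ratios of geometric means. Ratios within arrays were compared by exact permutation. Python 3.11.15 with pandas 2.3.3 read the files. The fit was tested on simulated data whose noise was independent and equally spread for all miRNAs, with changes larger than those of the members. That test therefore does not cover unequal spread or dependence between miRNAs in these data. Alternatives covered signal summary, background, scaling, floor, filter, eBayes trend, test, replicate block and each array left out.

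Named miRNAs are the members, their passenger strands, the 3 nearest miRNAs of each member, the fibrosis-linked miRNAs and cell type markers. The members and lists were chosen with earlier results of these data known. Naming the 3 nearest of miR-29c, which is below the minimum, and the fibrosis-linked miRNAs not called went beyond the rule and was done after seeing values. RefSeq sequences (GRCh38.p14) were matched by name for 737 of 851 human miRNAs and all 7 strands of the family. The array design names another build, so its positions were not used. With 2 arrays a group, precision is limited by their number.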

Additional observations from a re-analysis of the deposited data

How the results depend on the processing

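Over 18 alternatives each, miR-29a stayed lower in MG cells with folds of 0.685 to 0.864. It passed the limma threshold in 3: normexp (fold 0.829, adjusted p = 0.0312, 13 of 57 miRNAs called), quantile normalization (0.864, adjusted p = 0.00277, 11 of 57 called) and an eBayes trend (0.801, adjusted p = 0.00329, 15 of 57 called). miR-29b was not called in any of its 18 alternatives, and its fold was 1.09 without MG replicate 2. Leaving out each array in turn gave folds of 0.755 to 0.850 for miR-29a, 0.738 to 1.09 for miR-29b and 0.566 to 0.869 for miR-29c. With normexp the fold of miR-29c was 0.895. The runs of miR-29c at a minimum of 20 without an array, with the block or with a trend were chosen after seeing the data. The fold of 0.685 for miR-29a came with the total per miRNA in the files, whose limits are given below. The cause of the other shifts was not tested.

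The log2 ratio difference of miR-29a over miR-29b was 0.02 without non-MG replicate 2 and 0.10 without MG replicate 1, that of miR-29a over miR-29c -0.11 with normexp and -0.10 without MG replicate 2, and that of miR-29b over miR-29c 0.07 with normexp and 0.29 with quantile normalization. Leaving out each array in turn gave ranges of -0.43 to 0.10, -0.10 to 0.49 and 0.32 to 0.38 for the 3 pairs.

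The number of miRNAs called by limma, 14 of 57, was 0 of 89 with the total per miRNA in the files (28 at an unadjusted p under 0.05), 6 without scaling, 9 of 44 with a minimum of 100 and 1 of 851 without a filter. It was 0 with the unpaired test of the figure legends (7 unadjusted), and 3 to 11 without 1 array, with 5 without non-MG replicate 1 and 3 without non-MG replicate 2. The total in the files moved the median log2 change of all miRNAs from -0.08 to -0.29. For miR-29b-1-5p this total was 834 and 842 in non-MG and 691 and 653 in MG samples. Its summed probe signals were 13.5 and 11.9 against 13.0 and 11.2, so the total does not measure each miRNA alone. The totals of the 3 members matched their summed signals, so only the scaling changed their folds in this setting. Of the calls, 8 were lower and 6 higher as reported, 4 and 7 with median scaling, 3 and 3 without scaling, and 5 and 6 with quantile normalization.

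The samples share only a replicate number. The deviations of same-numbered arrays from their group means correlated at 0.481 across 57 miRNAs, which are not independent, over 2 pairs. With the replicate block limma called 8 of 57 miRNAs, and the adjusted p was 0.115 for miR-29a and 0.470 for miR-29b. At a minimum of 20 the blocked limma fit called 22 of 91 miRNAs, 16 of them lower in MG cells. In that fit the adjusted p of miR-29c was 0.0103. A percentile over all miRNAs (the value of undetected ones) and the slide as a block (1 slide) could not be run. Spots near background limit miR-29c and the passenger strands.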
